A study of Mus musculus with 22 samples.

Results

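The integrated stress response was followed through 34 genes of the 38293 in each table: 18 cytoplasmic tRNA synthetases and 16 other genes of the response. The genes were taken by symbol. All 34 were found, with the same Ensembl identifier behind each symbol in both tables. The cells were bone marrow-derived macrophages (BMDMs), macrophages grown from mouse bone marrow in medium with supernatant of L929 cells, a source of macrophage growth factor. The donors were C57BL/6 mice aged 6 to 12 weeks, and every group, controls included, was Il10-/-, so that no group had a working gene for the cytokine IL-10. Cells received lipopolysaccharide (LPS, a cell wall component of Gram-negative bacteria) together with IL-10, LPS alone, or IL-10 alone, each at 100 ng/ml, or stayed untreated as control. RNA was sequenced after 3, 6 and 12 h from 22 libraries in 11 groups of 2. One table holds the 4 groups of 3 h (8 libraries). The other holds 3 treated groups at each of 6 h and 12 h and 1 control that both times share (7 groups, 14 libraries), and the labels give no harvest time for that control.

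In the integrated stress response, kinases that sense a shortage of amino acids (GCN2, gene Eif2ak4) or unfolded protein in the endoplasmic reticulum (PERK, gene Eif2ak3) phosphorylate the translation initiation factor eIF2. Most translation slows, while the mRNA of the transcription factor ATF4 is translated more. ATF4 and its target CHOP (gene Ddit3) switch on genes for amino acid synthesis, amino acid uptake and tRNA charging, and GADD34 (gene Ppp1r15a) brings a phosphatase to eIF2 and so ends the response. A tRNA synthetase joins 1 kind of amino acid to its tRNA, which every translating cell needs. In macrophages LPS is known to engage this pathway through Toll-like receptor signalling, and IL-10 is known to restrain the response to LPS. The values here are RNA levels; eIF2 phosphorylation, ATF4 protein and tRNA charging were not measured.

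Each value is a number of normalized reads, which is the reads of a gene divided by a size factor of its library. The libraries held 9337222 to 21455291 reads in the 3 h table and 15162195 to 31772075 in the other. Changes are log2 changes of the normalized reads plus 1 with their SE, from a limma fit over all groups of a table. "Rose" and "fell" stand for an adjusted p (Benjamini-Hochberg over all genes tested) under 0.05, two-sided. The labels do not say whether the 2 libraries of a group came from separate cultures or mice, so the p-values measure only the spread between these libraries, which may be technical. In bulk RNA, fewer cells expressing a gene and less RNA per cell cannot be told apart. Vldlr, the VLDL receptor, had 1.11 to 9.99 normalized reads at 3 h and failed the filter on low values there, so 33 members were tested at 3 h and 34 at 6 h and 12 h.

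All 8 macrophage markers examined were detected in every group. Replicates differed along the GC content of the transcripts: the rank correlation across genes of GC content with the difference between replicates 1 and 2 ran from -0.62 to 0.80 over the 11 groups (12214 or 12688 genes, which share the libraries' depth). Among the members, replicate gaps were wide in the control of the 6 h and 12 h table; the part of GC content in them was not tested. There, Vars had 1937 and 791 normalized reads (2.45-fold) and Shmt2 had 1416 and 660.0 (2.15-fold). The sum of normalized reads per library was 32877731 and 35469303 after 6 h of LPS, against 14632292 and 16377752 in the control, so the scaling sets where 0 lies in the comparisons with LPS.

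Per kilobase of exon, Atf4 was the most abundant member in 9 of the 11 groups. In the control of the 6 h and 12 h table Atf4 had 1799 normalized reads per kilobase. Next came the tRNA synthetase genes Nars (asparagine) with 1311 and Gars (glycine) with 987.8. The least abundant were Vldlr with 0.895, Chac1 with 22.1 and Psph with 46.0 normalized reads per kilobase. After 12 h of LPS, Atf4 stood at 5145 per kilobase and Ddit3 was the fourth most abundant at 1560. At 3 h with LPS, Nars (1420 normalized reads per kilobase) was above Atf4 (1328).

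Promoter sequence was available for 27 members, as windows from 250 bases before to 50 bases after the start of each gene (RefSeq, GRCm38.p6). The core of the C/EBP-ATF response element, the composite site that ATF4 is known to bind, was searched as TGATGNAA on both strands. Windows of 9 members held it: Aars, Asns, Chac1, Gars, Iars, Tars, Trib3, Vldlr and Yars. It was in 3.97% of all 32851 windows. The lines below show it for the 5 members, Vldlr aside, in which it lies before the start, because these genes include the amino acid and tRNA charging genes whose values follow; capitals mark the core, as read on the gene's own strand.
Asns, chr6:7693210-7693272, minus strand: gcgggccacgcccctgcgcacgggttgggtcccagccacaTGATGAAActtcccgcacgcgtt
Chac1, chr2:119351009-119351096, plus strand: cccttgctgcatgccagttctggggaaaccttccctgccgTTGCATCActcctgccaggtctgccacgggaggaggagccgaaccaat
Aars, chr8:111033690-111033777, plus strand: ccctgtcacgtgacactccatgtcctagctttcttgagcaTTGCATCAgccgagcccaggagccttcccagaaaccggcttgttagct
Gars, chr6:55037931-55038000, plus strand: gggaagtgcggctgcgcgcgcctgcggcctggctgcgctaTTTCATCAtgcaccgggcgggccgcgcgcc
Tars, chr15:11399659-11399713, minus strand: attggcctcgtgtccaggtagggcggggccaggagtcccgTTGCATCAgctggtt
Ppp1r15a, the member with the largest log2 change with LPS, was the 1 member with the palindromic cyclic AMP response element TGACGTCA, which 1.79% of all windows held. Its last 52 bases before the start follow, with that element in capitals.
Ppp1r15a, chr7:45526269-45526320, minus strand: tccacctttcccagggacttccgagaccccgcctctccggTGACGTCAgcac
Further from the start, the Ppp1r15a window also held the core of the interferon-stimulated response element, GAAANNGAAA, as did the windows of Qars and Vldlr (3.44% of all windows). A STAT site, TTCNNNGAA, was in the windows of Aars, Eif2ak3, Kars and Shmt2 (8.3% of all windows). These matches describe letters in the windows and are no evidence of binding.

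LPS alone was first set against the control. At 3 h, 13 of 33 members rose and 7 fell, where 27.6% of all genes tested were called higher and 25.9% lower. At 6 h, 10 of 34 rose and 10 fell (28.4% and 31.3% of all genes). At 12 h, 16 of 34 rose and 6 fell (23.7% and 23.8% of all genes). The median log2 change of the members was 0.22, 0.21 and 0.48 at 3, 6 and 12 h, beside 0.03, -0.04 and -0.02 for all genes tested. At 6 h both shares were near those of all genes, and the share called higher at 12 h was the one farthest above that of all genes. For called members, the 2 libraries of one group did not overlap with the 2 of the other in any comparison between groups. A call at this threshold already makes that likely. The share among all called genes was not counted, so this is no trait of the members.

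**Figure D1:**
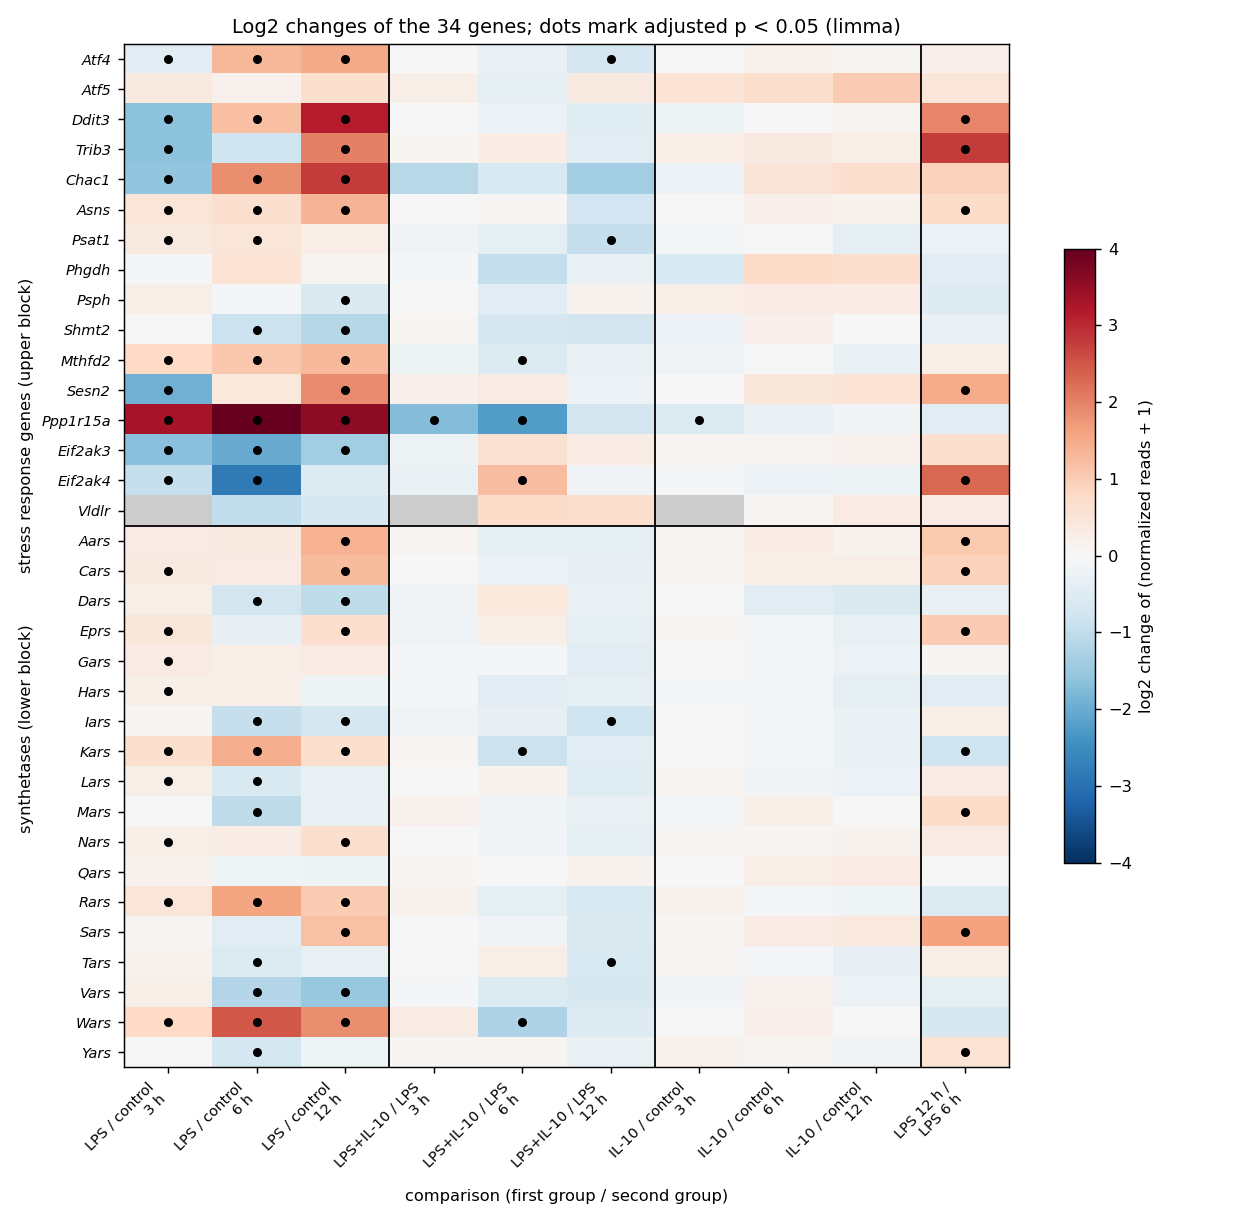
Log2 change of each of the 34 genes (rows, grouped by role) in each comparison (columns); colour gives the log2 change and dots mark an adjusted p under 0.05. Ppp1r15a stands out in the LPS columns (3.30, 3.98 and 3.57 at 3, 6 and 12 h), and Atf4, Ddit3 and Chac1 are lower at 3 h and higher at 6 and 12 h.

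These splits depended on the scaling. The deposited size factors leave the median gene near 0, whereas scaling every library to the same total shifted the all-gene median of LPS against control by -0.58, -1.12 and -0.73 at 3, 6 and 12 h. With equal totals, 2 members rose and 22 fell at 3 h, 2 rose and 24 fell at 6 h, and 9 rose and 16 fell at 12 h. With quantile normalization the counts were 3 and 9, 6 and 14, and 11 and 9; with TMM factors they were 15 and 9 at 12 h. With equal totals 9 of the 20 calls at 3 h, 3 of 20 at 6 h and 3 of 22 at 12 h turned their sign. Measured from the all-gene median of the same scaling, none of these calls turned its sign with equal totals, while 4, 1 and 1 did so with quantile normalization. Changes below are therefore relative to the median gene. The 3 h groups have their own table and control. Time and table thus cannot be told apart in a difference between 3 h and the later times.

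**Figure D2:**
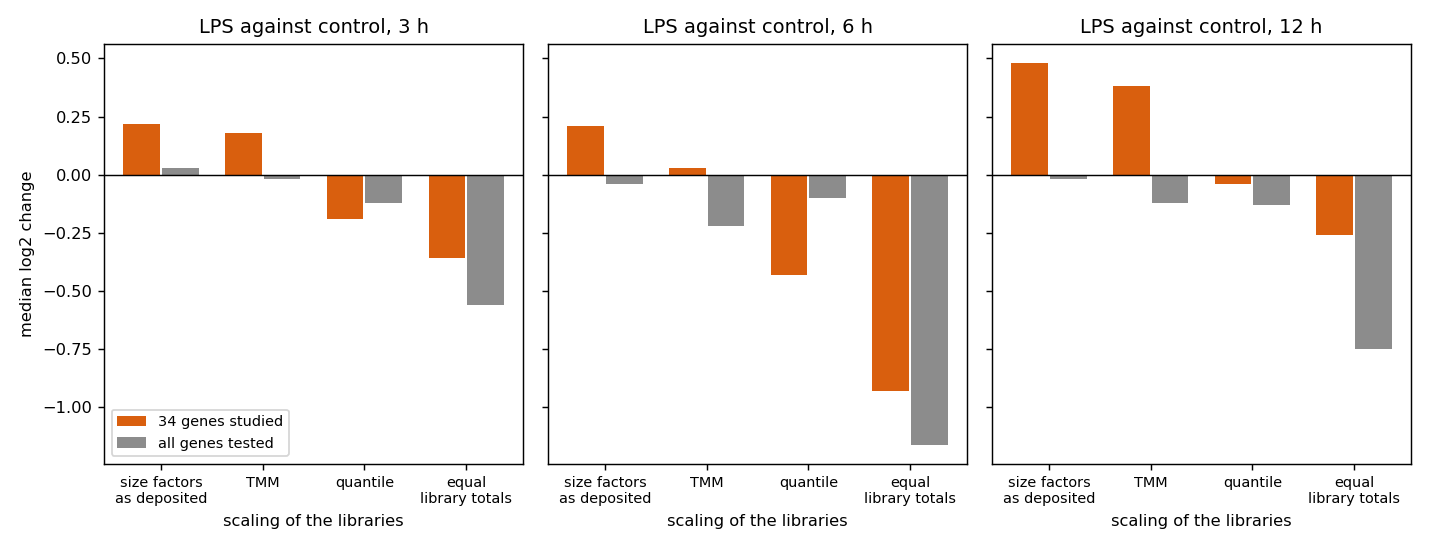
Median log2 change, LPS against control, of the 34 genes (33 tested at 3 h) and of all genes tested. Values are shown at 3, 6 and 12 h (groups of bars) under the deposited size factors, TMM factors, quantile normalization and equal library totals. With equal totals the median of the genes studied is -0.36, -0.93 and -0.26 and that of all genes -0.56, -1.16 and -0.75.

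Atf4 (chr15:80255184-80257541, plus strand, GRCm38), the central transcription factor, was lower than control at 3 h and higher at 6 and 12 h. At 3 h it had 3123 and 3139 normalized reads with LPS, against 4046 and 4555 in the control (log2 change -0.46 ± 0.09 SE, adjusted p = 0.0016). At 6 h it had 10384 and 10728 with LPS, and at 12 h 11398 and 12864, against 4100 and 4387 in the shared control. Both LPS groups lay far above the control without overlap, with log2 changes of 1.32 ± 0.15 at 6 h (adjusted p = 3e-05) and 1.51 ± 0.15 at 12 h (adjusted p = 2.3e-05). Atf5, a related factor that also responds to eIF2 phosphorylation, passed at none of the 3 times (0.36, 0.16 and 0.64, smallest adjusted p = 0.053 at 12 h).

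Ddit3 (chr10:127290774-127296288, plus strand), which encodes CHOP, a factor linked to cell death under lasting stress, had the widest swing of the factors. At 3 h it had 114 and 98.5 normalized reads with LPS, against 298 and 366 in the control (-1.63 ± 0.18, adjusted p = 5.2e-05). At 6 h it had 765 and 618 with LPS, against 404 and 222 in the control (1.20 ± 0.31, adjusted p = 0.0066). At 12 h the LPS libraries held 2895 and 2450.2 (3.15 ± 0.31, adjusted p = 2.8e-05), above every other library of that table; the higher LPS+IL-10 library at 12 h, with 2215, came nearest. Its exons share 68 bases with those of Mars, the tRNA synthetase gene for methionine, on the opposite strand. They also share 105 bases (6.1%) with another annotated gene of the same name on the same strand. The sources used here do not say whether counting used the strand. The 6 h call ended without LPS replicate 1 or control replicate 2 (0.77 to 1.04).

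Trib3, Chac1 and Sesn2, known targets of ATF4 or CHOP, were lower than control at 3 h and higher at 12 h. Trib3, a pseudokinase that restrains ATF4 and AKT signalling, had 23.6 and 43.2 normalized reads with LPS at 3 h, against 68.3 and 153 in the control (-1.65 ± 0.38, adjusted p = 0.0051). At 12 h it had 644 and 464 with LPS, against 187 and 95.4 in the control (2.02 ± 0.36, adjusted p = 0.0011), whereas its 75.9 and 78.3 at 6 h did not pass (-0.79 ± 0.36, adjusted p = 0.079). Trib3 was thus low at 3 h and high at 12 h, with wide gaps between control replicates in both tables. Chac1, an enzyme that degrades glutathione, had 8.69 and 5.53 normalized reads with LPS at 3 h, against 16.7 and 30.8 in the control (-1.58 ± 0.55, adjusted p = 0.035). It had 152 and 106 with LPS at 6 h and 255 and 231 at 12 h, against 48.7 and 23.5 in the control (1.87 ± 0.38, adjusted p = 0.0014, and 2.80 ± 0.38, adjusted p = 0.00021). The groups did not overlap, but the 3 h call rests on few reads and ended in 5 of the fits that left out 1 library (-1.86 to -1.15), among them those without either LPS library or control replicate 2.

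Sesn2, a sestrin that lowers mTORC1 activity when leucine is short, had the strongest fall of all members at 3 h. It had 68.3 and 77.5 normalized reads with LPS at 3 h, against 257 and 306 in the control (-1.93 ± 0.16, adjusted p = 6.2e-06). At 6 h it had 494 and 393 with LPS, against 443 and 249 in the control, which overlap (0.41 ± 0.33, adjusted p = 0.31). At 12 h it had 1353 and 1112 (1.88 ± 0.33, adjusted p = 0.0011), above both control libraries.

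**Figure D3:**
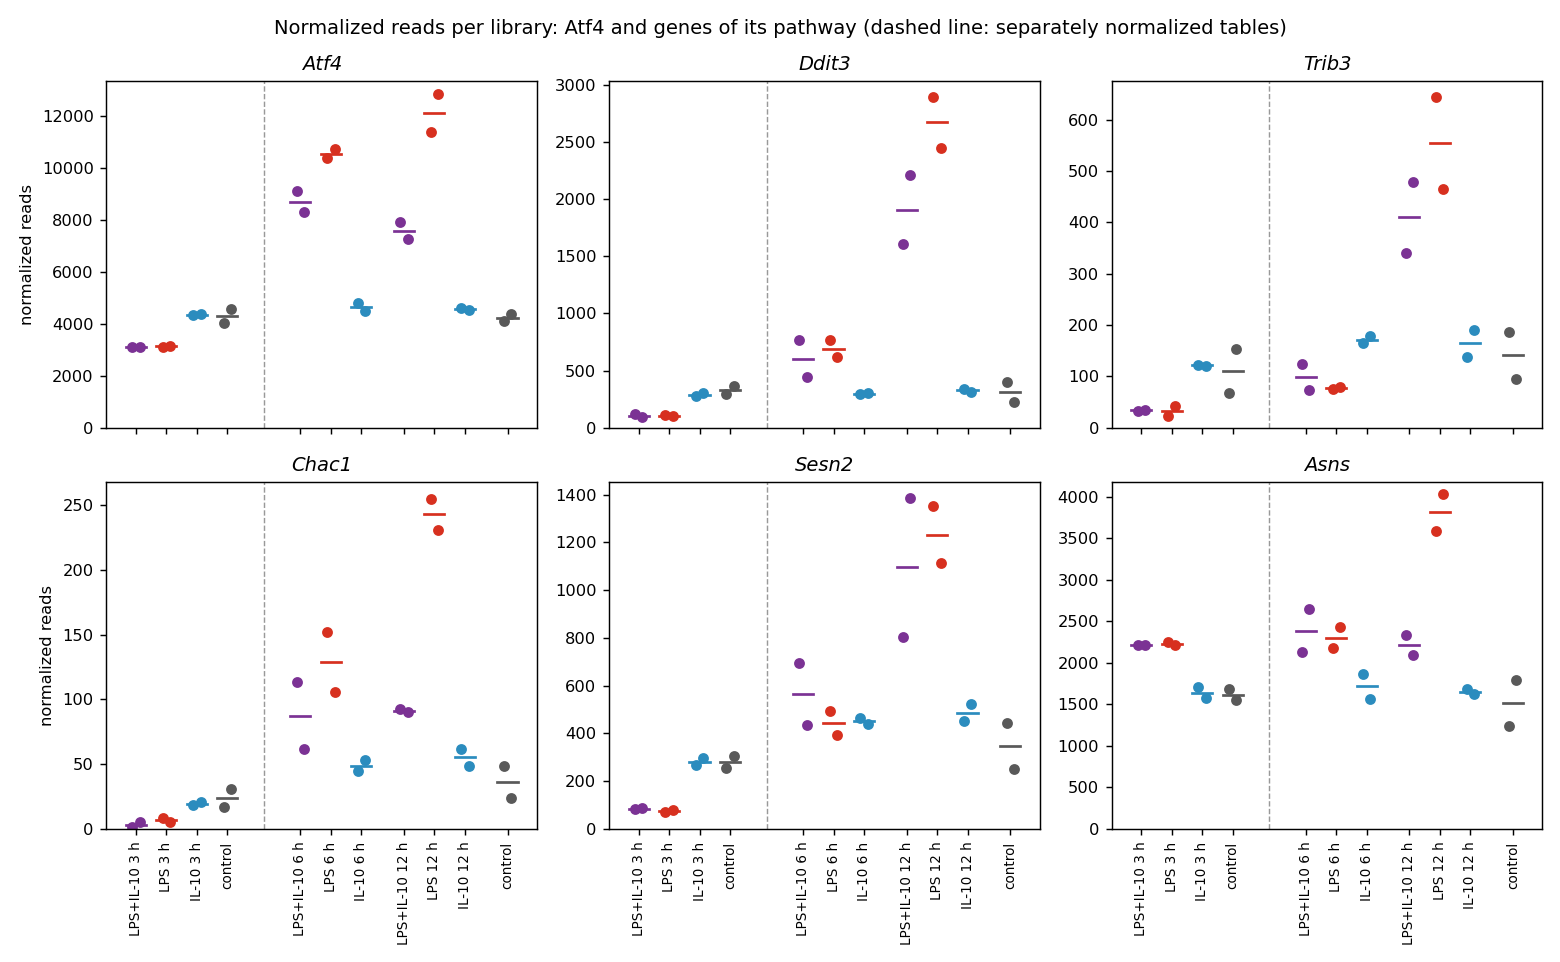
Normalized reads (linear axis from 0) of Atf4, Ddit3, Trib3, Chac1, Sesn2 and Asns in each library of each group; points are libraries and bars are means of 2, with the 3 h table left of the dashed line and the 6 h and 12 h table right of it. For Ddit3, LPS at 3 h (114 and 98.5) lies below its control (298 and 366), and LPS at 12 h (2895 and 2450.2) lies above its control (404 and 222).

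The enzymes of amino acid and one-carbon synthesis did not move as one. Asns, asparagine synthetase, rose at all 3 times, with log2 changes of 0.47 ± 0.09, 0.63 ± 0.20 and 1.35 ± 0.20 at 3, 6 and 12 h (adjusted p = 0.0017, 0.018 and 0.00038). At 12 h it had 3586 and 4036 normalized reads with LPS, against 1239 and 1789 in the control. Mthfd2, a mitochondrial enzyme of the folate cycle, also rose throughout (0.81 ± 0.08, 1.07 ± 0.15 and 1.29 ± 0.15; adjusted p = 2.3e-05, 0.00014 and 8.1e-05). Shmt2, the mitochondrial enzyme that feeds serine carbon into the step before Mthfd2, instead fell at 6 and 12 h (-0.87 ± 0.35 and -1.15 ± 0.35, adjusted p = 0.049 and 0.018). Of the 3 enzymes that make serine, Psat1 rose at 3 and 6 h (0.35 ± 0.09 and 0.48 ± 0.19), Psph fell at 12 h (-0.58 ± 0.20, adjusted p = 0.033), and Phgdh, the first step, passed at no time (-0.07, 0.54 and 0.11). The calls of Shmt2 and Psph and the 6 h call of Psat1 were lost in 3 to 12 of the leave-out fits of their comparison; without control replicate 1, the Shmt2 change was -0.32 at 6 h and -0.60 at 12 h. The 6 h call of Asns was lost without control replicate 1 (0.36) or LPS 6 h replicate 2 (0.55). Psph shares 10.4% of its exon bases with Cct6a on the opposite strand, a gene with a mean of 3471 normalized reads in the 6 h and 12 h table, so part of its reads may be shared.

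Ppp1r15a (chr7:45522916-45526268, minus strand), which encodes GADD34, the inducible phosphatase subunit that restores translation, had the largest change of any member at every time. At 3 h it had 3234 and 3557 normalized reads with LPS, against 315 and 373 in the control (3.30 ± 0.11, adjusted p = 1.5e-08). At 6 h it had 3658 and 3259.9 and at 12 h 2294 and 2924 with LPS, against 291 and 163 in the control (3.98 ± 0.30, adjusted p = 3e-06, and 3.57 ± 0.30, adjusted p = 8.9e-06). Every LPS library held more than every control library of its table. Ppp1r15a was therefore high at 3 h, when Ddit3, Trib3, Chac1 and Sesn2 were below control.

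The eIF2 kinases among the members were lower with LPS. Eif2ak3 (PERK) had 189 and 182 normalized reads with LPS at 3 h, against 576 and 605 in the control (-1.67 ± 0.11, adjusted p = 1.5e-06). It had 212 and 175 with LPS at 6 h and 399.6 and 229 at 12 h, against 759 and 824 in the control (-2.03 ± 0.25, adjusted p = 5.4e-05, and -1.38 ± 0.25, adjusted p = 0.0012). Eif2ak3 was the 1 member that fell at all 3 times. Eif2ak4 (GCN2; chr2:118388618-118475234, plus strand) had 465 and 492 with LPS at 3 h, against 1011 and 828 in the control (-0.93 ± 0.12, adjusted p = 0.00012). At 6 h it had 84.6 and 66.9 with LPS, against 561 and 528 in the control (-2.84 ± 0.23, adjusted p = 5.2e-06), the deepest fall of any member. At 12 h its 448 and 315 lay below the control again, but the change did not pass (-0.53 ± 0.23, adjusted p = 0.081). Eif2ak3 shares 8.0% of its exon bases with another annotated gene, so part of its reads may be shared.

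**Figure D4:**
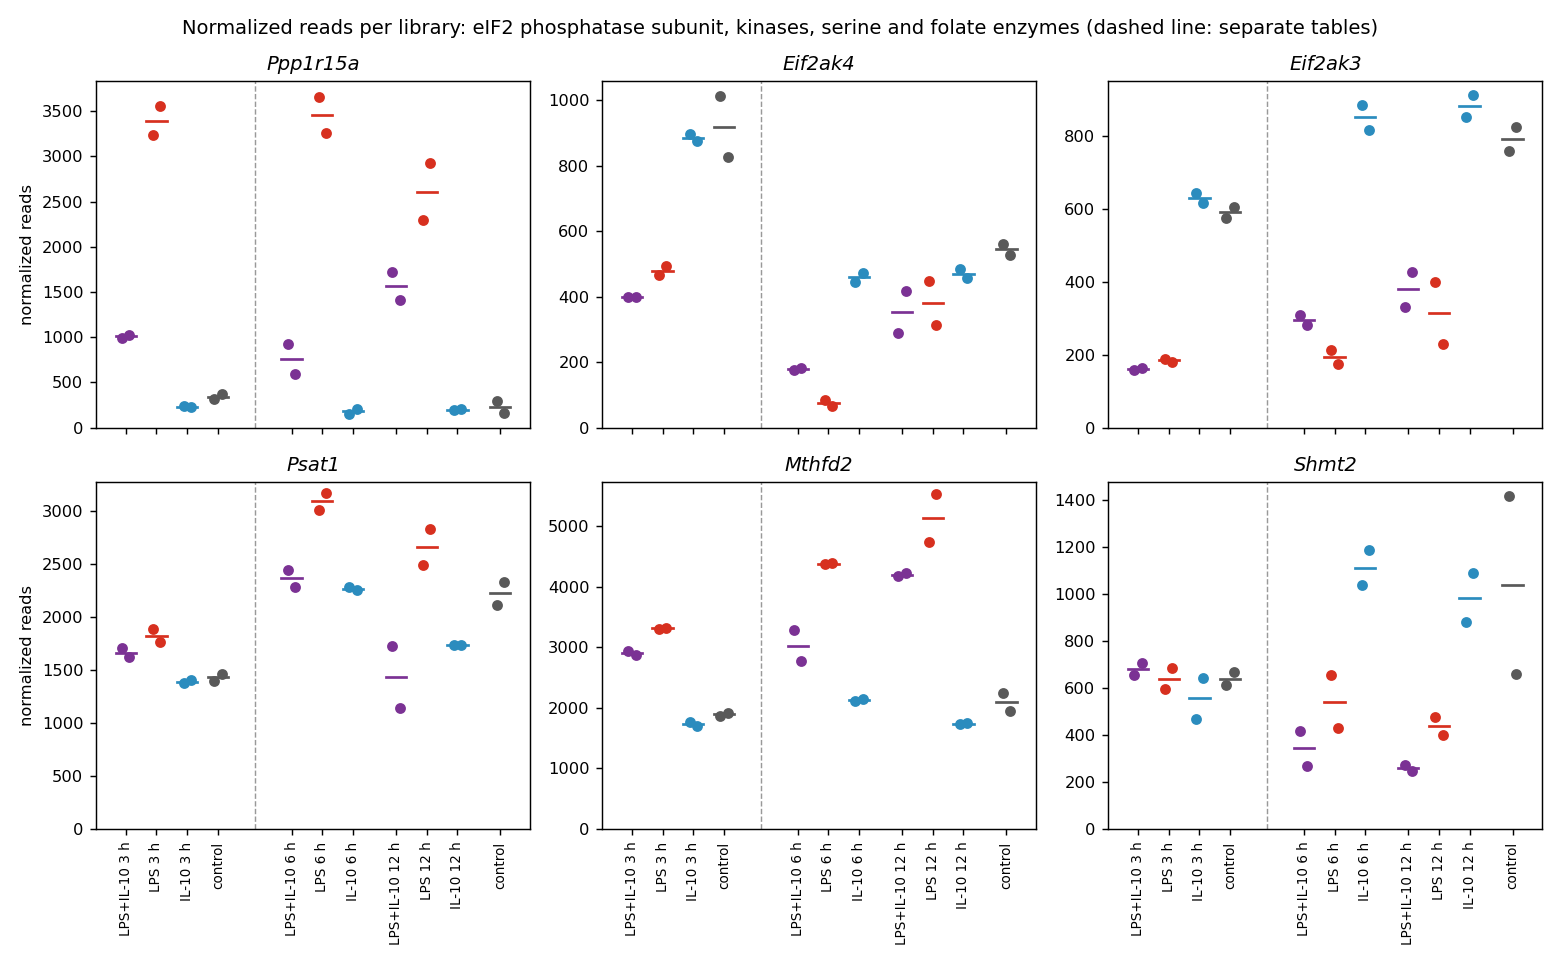
Normalized reads (linear axis from 0) of Ppp1r15a, the kinases Eif2ak4 and Eif2ak3, and Psat1, Mthfd2 and Shmt2 in each library; points are libraries and bars are means of 2, with the 3 h table left of the dashed line. Ppp1r15a with LPS and IL-10 lies between LPS and control at 3 h (994 and 1031, beside 3234 and 3557 for LPS). Within the 6 h and 12 h table, Eif2ak4 is lowest with LPS at 6 h (84.6 and 66.9).

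The calls of the 18 tRNA synthetases differed between the times, where the 3 h groups have their own table and control. Time and table cannot be told apart in a difference between 3 h and the later times. At 3 h 9 rose, and the lowest change of the 18 was -0.03. At 6 h 3 rose and 7 fell, and at 12 h 8 rose and 3 fell, with median log2 changes of 0.24, -0.25 and 0.08. The other 16 genes had 4 higher and 7 lower of 15 tested at 3 h, 7 and 3 at 6 h, and 8 and 3 at 12 h, with medians of -0.07, 0.44 and 0.97. Of all genes, 27.6% were called higher and 25.9% lower at 3 h, 28.4% and 31.3% at 6 h, and 23.7% and 23.8% at 12 h. Several of the counts lay near these shares. The rise of the synthetases at 3 h was small and depended on the scaling: with equal totals, 7 of the 9 (Cars, Eprs, Gars, Hars, Lars, Nars and Rars) had negative changes of -0.36 to -0.11, and with quantile normalization Eprs, Gars, Hars, Lars, Nars and Rars did. Of the 8 fits that left out 1 library, Nars and Lars lost their calls in 7 each (0.18 to 0.26), Hars in 6 (0.21 to 0.26), Gars without either LPS library (0.32 and 0.33) and Cars without LPS 3 h replicate 2 (0.32).

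Wars, Kars and Rars, which charge tRNA with tryptophan, lysine and arginine, rose at all 3 times. Wars (chr12:108860030-108894174, minus strand), a synthetase known to be induced by interferons, had 1437 and 1485 normalized reads with LPS at 3 h, against 799.5 and 872 in the control (0.81 ± 0.09, adjusted p = 6.1e-05). At 6 h it had 6312 and 5683 and at 12 h 3116 and 4716 with LPS, against 1313 and 866 in the control (2.49 ± 0.27, adjusted p = 2.8e-05, and 1.85 ± 0.27, adjusted p = 0.00039). Its LPS libraries stood above the control libraries of their own table, with higher values at 6 h than at 12 h. Kars had 4629.5 and 4273 normalized reads with LPS at 6 h, against 1758 and 1506 in the control (1.45 ± 0.23, adjusted p = 0.00028), and changed by 0.64 at both 3 and 12 h. Rars had 7709 and 9189 with LPS at 6 h, against 2298 and 3463 in the control (1.58 ± 0.28, adjusted p = 0.0006), with 0.48 ± 0.09 at 3 h and 1.02 ± 0.28 at 12 h. The 12 h calls of Kars and Rars were lost in 8 and 2 leave-out fits (0.37 to 0.64 and 0.73 to 0.77).

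Aars, Cars and Sars, for alanine, cysteine and serine, had their largest rise at 12 h. Aars had 9129 and 7956 normalized reads with LPS at 12 h, against 4129.5 and 2561 in the control (1.39 ± 0.26, adjusted p = 0.0015). Cars had 3022 and 2836, against 1274 and 1188 (1.25 ± 0.15, adjusted p = 0.0001), and Sars had 5195 and 4356, against 2652 and 1655 (1.18 ± 0.27, adjusted p = 0.0044). Aars and Sars had passed at neither earlier time. Eprs, which charges both glutamate and proline, and Nars rose at 3 and 12 h (Eprs 0.45 and 0.67, Nars 0.22 and 0.63). Aars shares 14.3% of its exon bases with a transcript annotated under Exosc6, so part of its reads may be shared.

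Other synthetases fell. Iars (isoleucine), Dars (aspartate) and Vars (valine) were lower at both 6 and 12 h. Iars had 1908 and 2036 normalized reads with LPS at 6 h and 2469 and 2139.8 at 12 h, against 3589 and 3927 in the control (-0.93 ± 0.14, adjusted p = 0.00023, and -0.71 at 12 h). Dars changed by -0.73 ± 0.23 and -1.03 ± 0.23, and Vars by -1.18 ± 0.40 and -1.53 ± 0.40, at 6 and 12 h. Mars (methionine, -1.01 ± 0.20), Tars (threonine, -0.56), Yars (tyrosine, -0.71) and Lars (leucine, -0.60) fell at 6 h. Gars and Hars, for glycine and histidine, rose at 3 h (0.32 and 0.24), where 8.0% of the exon bases of Hars are shared with Hars2 on the opposite strand, and Qars, for glutamine, passed at no time (0.14, -0.16 and -0.19). Without control replicate 1, Vars changed by -0.53 at 6 h and -0.89 at 12 h and did not pass; its 6 h call was also lost without LPS 6 h replicate 2 (-0.96) or replicate 1 of every 12 h group (-1.18), and its 12 h call without LPS 12 h replicate 2 (-1.35). The 6 h call of Dars was lost without control replicate 2 (-0.43) or LPS 6 h replicate 1 (-0.49), and that of Lars without LPS 6 h replicate 1 (-0.50).

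**Figure D5:**
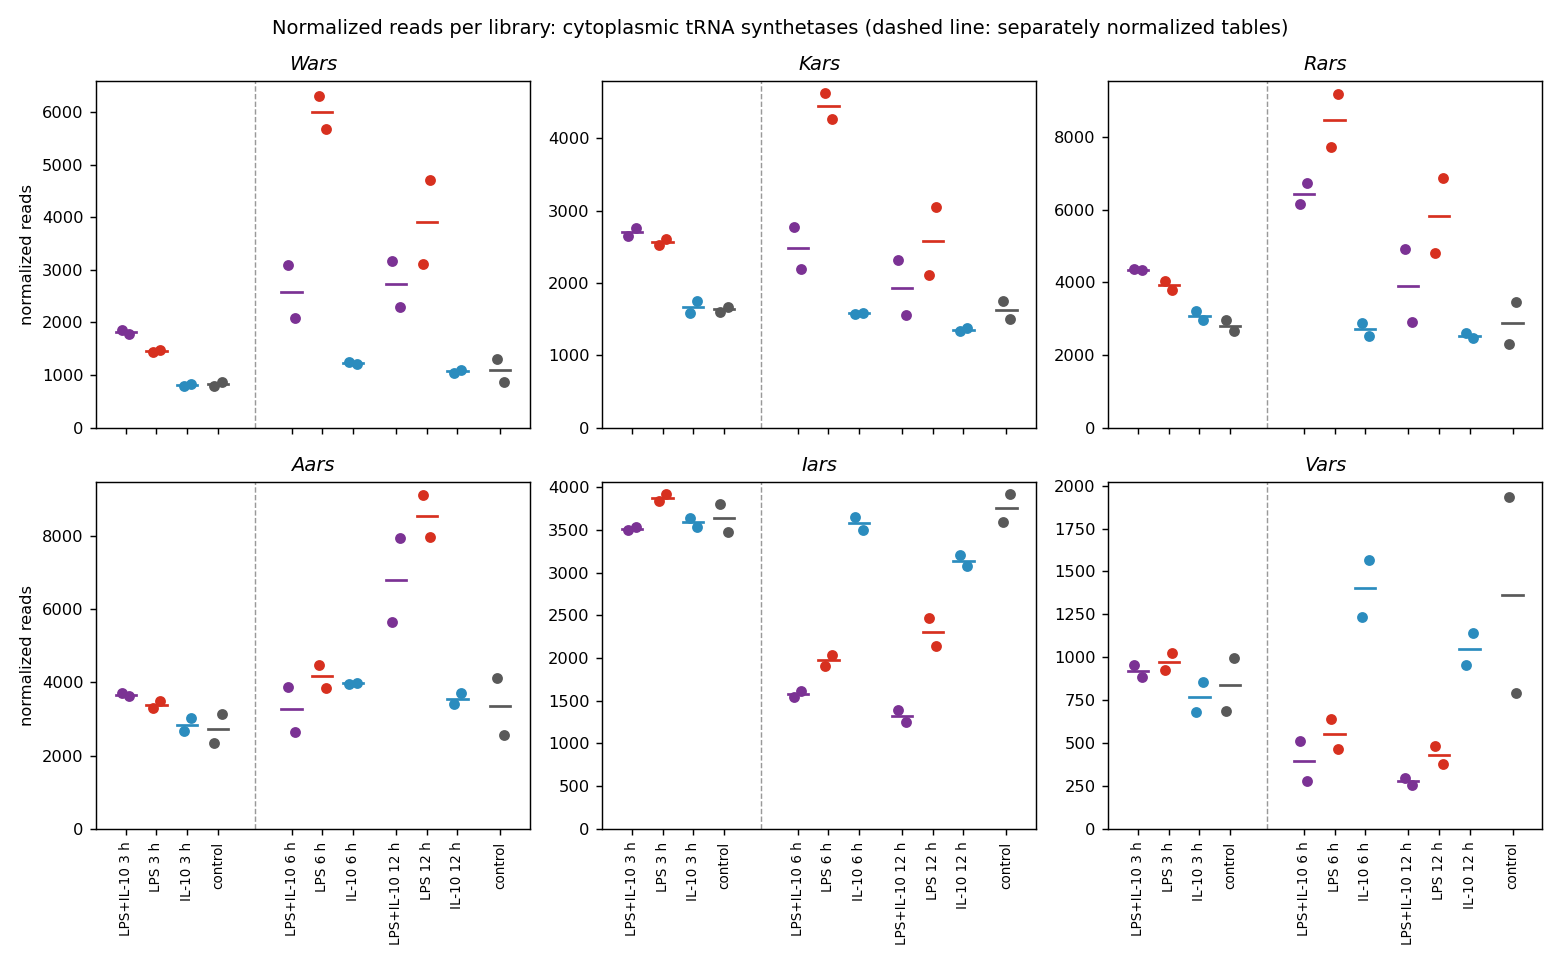
Normalized reads (linear axis from 0) of the synthetase genes Wars, Kars, Rars, Aars, Iars and Vars in each library; points are libraries and bars are means of 2, with the 3 h table left of the dashed line. Within the 6 h and 12 h table, Wars, Kars and Rars are highest with LPS at 6 h. There, Aars is highest with LPS at 12 h (9129 and 7956), and Iars is lowest with LPS and IL-10 at 12 h (1390.4 and 1253).

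Adding IL-10 to LPS was then set against LPS alone. At 3 h 1 member was called, Ppp1r15a, which fell (4.68% of all genes were called higher and 4.92% lower). It had 994 and 1031 normalized reads with LPS and IL-10, against 3234 and 3557 with LPS (-1.74 ± 0.11, adjusted p = 1.4e-05). Both values lay between those of LPS and control. Atf4 had 3101 in each library with LPS and IL-10, against 3123 and 3139 with LPS (-0.01 ± 0.09, adjusted p = 0.96).

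At 6 h 1 member rose and 4 fell with IL-10 added to LPS, where 13.7% of all genes were called higher and 10.0% lower. Ppp1r15a had 924 and 595 normalized reads with LPS and IL-10, against 3658 and 3259.9 with LPS (-2.22 ± 0.30, adjusted p = 0.00077). Eif2ak4 rose, with 175 and 183 against 84.6 and 66.9 (1.24 ± 0.23, adjusted p = 0.0048), so that the kinase stood between LPS and control. The synthetases Wars and Kars fell: Wars had 3087 and 2086 with LPS and IL-10, against 6312 and 5683 with LPS (-1.24 ± 0.27, adjusted p = 0.01). Kars had 2770.1 and 2190.0, against 4629.5 and 4273 (-0.85 ± 0.23, adjusted p = 0.023), and Mthfd2 had 3279 and 2772, against 4376 and 4391 (-0.54 ± 0.15, adjusted p = 0.027). These 3 also lay between LPS and control. The count of called members fell to 2 without LPS 6 h replicate 1 or LPS+IL-10 6 h replicate 2 and to 3 without LPS 6 h replicate 2; Ppp1r15a and Eif2ak4 kept their calls in every leave-out fit. The split was 4 higher and 2 lower with equal totals and 1 higher and 2 lower with quantile normalization.

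At 12 h 4 members were called, all lower with IL-10 added to LPS (2.68% of all genes were called higher and 2.23% lower). Atf4 had 7921 and 7264 normalized reads with LPS and IL-10, against 11398 and 12864 with LPS (-0.67 ± 0.15, adjusted p = 0.028). Psat1 had 1724 and 1140.2, against 2492 and 2828 (-0.92 ± 0.19, adjusted p = 0.02). Iars had 1390.4 and 1253, against 2469 and 2139.8 (-0.80 ± 0.14, adjusted p = 0.012), and Tars had 942 and 947, against 1494 and 1411 (-0.62 ± 0.13, adjusted p = 0.027). Atf4 with LPS and IL-10 was between LPS and control, while Psat1, Iars and Tars were below both. Asns (-0.78 ± 0.20, adjusted p = 0.05 as rounded, just above the threshold), Chac1 (-1.40 ± 0.38, adjusted p = 0.061) and Ppp1r15a (-0.73 ± 0.30, adjusted p = 0.19) did not pass, nor did Ddit3 (-0.50), Trib3 (-0.44) or Sesn2 (-0.22). None of the 4 calls survived every leave-out fit: none passed without LPS+IL-10 12 h replicate 2, and the changes in the fits that lost a call were -0.82 to -0.59 for Atf4, -0.83 to -0.62 for Psat1, -0.77 to -0.70 for Iars and -0.62 to -0.57 for Tars. With equal totals 1 of the 4 was called.

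IL-10 alone, set against the control, called 1 member at 3 h: Ppp1r15a fell, with 235 and 228 normalized reads with IL-10, against 315 and 373 in the control (-0.56 ± 0.11, adjusted p = 0.043; 1.22% of all genes were called higher and 0.421% lower). That call was lost without any of the 6 treated libraries of the 3 h table (-0.59 to -0.54). At 6 h limma called 0 members, with 1 at an unadjusted p under 0.05 and 0 by edgeR and by DESeq2; 0.0624% of all genes were called higher and 0.0% lower. At 12 h limma called 0, with 3 at an unadjusted p under 0.05, 0 by edgeR and 1 by DESeq2 (1.01% of all genes higher and 0.546% lower). Atf4 changed by 0.02 ± 0.09, 0.13 ± 0.15 and 0.11 ± 0.15 with IL-10 alone at 3, 6 and 12 h.

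The interaction, which is the change with IL-10 during LPS minus the change with IL-10 alone, was tested directly. Ppp1r15a passed at 3 h (-1.18 ± 0.16, adjusted p = 0.0041), the 1 member called there (1.47% of all genes were called higher and 1.32% lower). At 6 h Ppp1r15a (-1.94 ± 0.42, adjusted p = 0.026) and Eif2ak4 (1.48 ± 0.33, adjusted p = 0.028) passed, beside 4.46% of all genes higher and 2.26% lower. At 12 h limma called 0 members, with 7 at an unadjusted p under 0.05, 0 by edgeR and 2 by DESeq2 (0.148% of all genes higher and 0.234% lower). The 3 h call was lost without LPS+IL-10 3 h replicate 1 (-1.15), and the 6 h calls in 7 and 8 leave-out fits (-2.15 to -1.52 for Ppp1r15a and 1.32 to 1.65 for Eif2ak4). With quantile normalization, 1 member was called higher and 0 lower at 6 h.

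LPS at 12 h was also set against LPS at 6 h: 11 members were higher at 12 h and 1 was lower (11.1% and 4.67% of all genes). At 12 h Trib3 had 644 and 464 normalized reads, against 75.9 and 78.3 at 6 h (2.81 ± 0.36, adjusted p = 0.00088). Eif2ak4 had 448 and 315 at 12 h, against 84.6 and 66.9 at 6 h (2.30 ± 0.23, adjusted p = 0.00025), and Ddit3 had 2895 and 2450.2, against 765 and 618 (1.95 ± 0.31, adjusted p = 0.003). The synthetases Sars (1.61 ± 0.27), Aars (1.04 ± 0.26), Eprs (1.01 ± 0.17), Cars (0.91 ± 0.15), Mars (0.72) and Yars (0.54) and the genes Sesn2 (1.47 ± 0.33) and Asns (0.73 ± 0.20) also rose, while Kars fell (-0.81 ± 0.23). Trib3 and Eif2ak4 kept their calls in every leave-out fit. The count was 6 without either LPS 6 h library or LPS 12 h replicate 1, and 2 without replicate 1 of every 12 h group.

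With LPS and IL-10, 9 members were higher and 3 lower at 12 h than at 6 h (9.28% and 9.57% of all genes). Atf5 was among those that rose, with 750.1 and 997 normalized reads at 12 h, against 434 and 309.8 at 6 h (1.24 ± 0.25, adjusted p = 0.0087). Trib3 (2.06), Ddit3 (1.69), Sars (1.15), Ppp1r15a (1.07), Aars (1.06), Eif2ak4 (0.95), Cars (0.81) and Mthfd2 (0.48) rose, and Dars (-1.0), Psat1 (-0.75) and Tars (-0.59) fell. All 12 calls were lost without LPS+IL-10 6 h replicate 2 and without LPS+IL-10 12 h replicate 2. Whether the change with IL-10 during LPS itself differed between 12 and 6 h was tested as a comparison added after the data were seen. Limma called 0 members, with 7 at an unadjusted p under 0.05, 0 by edgeR and 3 by DESeq2 (0.265% of all genes higher and 0.889% lower), and the nearest was Tars (-0.84 ± 0.19, adjusted p = 0.06).

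Neighbouring genes of the pathway were read from lists chosen with earlier results known. For LPS against control, the shares of all genes called higher and lower, beside which these counts are read, were 27.6% and 25.9% at 3 h, 28.4% and 31.3% at 6 h, and 23.7% and 23.8% at 12 h. Of 14 other eIF2 kinases, phosphatase subunits and translation factors, 5 rose and 2 fell with LPS at 3 h, 3 and 2 at 6 h, and 3 and 3 at 12 h. Eif2ak2, the double-stranded RNA-sensing kinase PKR, rose by 1.95, 3.02 and 1.92, and Ppp1r15b, the constitutive partner of the eIF2 phosphatase, by 1.80, 2.34 and 1.72, unlike Eif2ak3 and Eif2ak4 of the members. Impact, an inhibitor of GCN2, fell at 3 h (-1.92 ± 0.16) and rose at 12 h (1.49 ± 0.24). Ppp1cc, a catalytic subunit of the phosphatase, had a mean of 3917 normalized reads with LPS and IL-10 at 6 h, against 1300 with LPS (1.59 ± 0.21, adjusted p = 0.00072).

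Of 24 other ATF4 or CHOP targets and partners tested at 3 h, 8 rose and 6 fell with LPS; of 25 tested later, 7 rose and 8 fell at 6 h and 11 rose and 2 fell at 12 h. With LPS, 11 of the 25 were higher and 1 lower at 12 h than at 6 h. Atf3, a stress-induced factor of the same family, rose by 2.42, 3.89 and 3.70, and Nupr1, a stress-induced transcriptional regulator, by 3.88, 3.67 and 4.43. Ddit4, an inhibitor of mTORC1, averaged 101 normalized reads with LPS and IL-10 at 3 h, against 5.74 with LPS (3.97 ± 0.34, adjusted p = 7.7e-05), and 293.8 at 6 h, against 29.3 (3.35 ± 0.37, adjusted p = 0.00025). Cebpb of the same list also rose with IL-10 added to LPS (1.94 ± 0.29 at 3 h and 1.81 ± 0.22 at 6 h). In that comparison 2 rose and 1 fell of 24 at 3 h, and 6 and 2 of 25 at 6 h. Of all genes, 4.68% and 4.92% were called at 3 h, and 13.7% and 10.0% at 6 h. At 12 h 0 of 25 rose and 1 fell, beside 2.68% and 2.23% of all genes. The change with IL-10 during LPS was lower at 12 h than at 6 h for 2 of the 25 and higher for 0 (0.889% and 0.265% of all genes). These were Ddit4 (-3.63 ± 0.52, adjusted p = 0.013) and Cebpb (-1.68 ± 0.31, adjusted p = 0.029). IL-10 alone at 12 h raised 2 of 25 (1.01% of all genes), Aldh1l2 (1.60 ± 0.27, adjusted p = 0.016) and Nupr1 (1.26 ± 0.26, adjusted p = 0.038).

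Of the amino acid transporters, 4 rose and 4 fell of 13 at 3 h, near the shares of all genes, 3 and 8 of 14 at 6 h, and 5 and 3 of 14 at 12 h of LPS. Slc7a11, the cystine importer, rose by 2.40, 3.02 and 3.62, while Slc43a2, a carrier of large neutral amino acids, fell at 6 h (-4.44 ± 0.33). With IL-10 added to LPS at 12 h, 6 of 14 fell (2.23% of all genes), among them Slc7a11 (-1.76 ± 0.34, adjusted p = 0.017), Slc7a1 (-1.03 ± 0.15, adjusted p = 0.0047) and Slc1a4 (-1.19 ± 0.25, adjusted p = 0.022). IL-10 alone at 12 h lowered 2 of 14 (0.546% of all genes), Slc7a11 (-1.96 ± 0.34, adjusted p = 0.017) and Slc3a2 (-0.82 ± 0.18, adjusted p = 0.05 as rounded). Slc7a11 thus fell with IL-10 both with and without LPS, and none of the 14 passed the interaction at 12 h. Of 17 mitochondrial synthetases, which charge tRNA inside mitochondria, 1 rose and 6 fell with LPS at 3 h, 1 and 13 at 6 h, and 1 and 7 at 12 h, with medians of -0.18, -1.21 and -0.97. Mars2 fell at each time (-2.36, -2.73 and -2.06). Of 6 genes for phenylalanine synthetase subunits, the threonine synthetase-like Tarsl2 and scaffold proteins of the synthetase complex, 3 rose and 1 fell at 3 h, 1 and 3 at 6 h, and 3 fell at 12 h.

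Markers of other cell types were read beside these results. The 6 dendritic cell markers summed to 774 to 810.1 normalized reads with LPS at 12 h and 131 to 243 with LPS and IL-10, against 21.5 to 35.3 in the control; Ccr7 led them with a mean of 652 with LPS at 12 h. The 9 neutrophil markers summed to 2726 and 3164 with LPS and IL-10 at 6 h, against 698 and 764 with LPS, and S100a8 made up most of that sum (mean 2358), while the neutrophil surface marker Ly6g had at most 0.973 normalized reads in any library. The 7 fibroblast markers summed to 151.7 to 237.7 with LPS at 6 and 12 h, against 4.96 to 5.62 in the control, from Dcn and Pdgfrb. The 7 lymphocyte and 6 erythroid or mast cell markers stayed at or below 29.4 and 6.81 normalized reads in every library. The part of these markers in the results was not tested.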

How the data were processed

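RNA was taken up on RNeasy columns with DNase treatment and made into TruSeq libraries, per the labels' protocols. Per the submitters' processing notes, the tools included TopHat2 and DESeq2, with the build GRCm38, all without versions; what counted the reads, with which annotation and strand setting, is not given in the sources used here. In the deposited tables the signal of a gene equals its read count over the library's size factor, which the authors set for each of the 2 tables on its own. Such division sets the median gene near 0 and hides a shift common to most genes. Divided by the step of 1 read, the values came out as whole reads (100% within 0.01 reads), which gave each library's depth (9337222 to 31772075 reads). No interval for single libraries was needed; the depth limits mainly Chac1 and Vldlr.

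Here limma 3.58.1 (R 4.3.3, trend) was fitted to log2(normalized reads + 1) over all groups of a table, on genes that reached 10 normalized reads in 2 or more libraries (12338 and 12817 genes). P-values were adjusted by Benjamini-Hochberg over all genes tested, two-sided, with a threshold of 0.05. The fit was also run on simulated counts with no GC trend and few changed genes, unlike these data. That run therefore does not test the fit under the conditions seen here. Alternatives were edgeR 4.0.16 and DESeq2 1.42.0 on the recovered reads, TMM, quantile and equal-total scaling, no filter, pseudocounts of 0.5 and 10, a replicate block, removal of GC trends, and leaving out libraries. The members, lists and comparisons were chosen with earlier results of these data known. The text gives values per library for the 4 members with the largest called change in LPS against control and in LPS with IL-10 against LPS at each time, for members called in the interaction, and for Atf4, with others added after their values were seen. Of each further list it names up to 3 genes by smallest p. Lengths and coordinates are those of GENCODE M21 (GRCm38); promoter windows are from RefSeq (GRCm38.p6). No test compared values of the 2 tables with each other. Where the text sets changes at 3 h beside later ones, each was taken against the control of its own table.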

Additional observations from a re-analysis of the deposited data

Results flagged for a closer look

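In 15 results the change differed between groups by a test of the difference itself (limma, adjusted p under 0.05). Of these, 12 are differences between LPS at 12 h and LPS at 6 h, which equal the difference of the changes from the shared control. Trib3 (2.81), Eif2ak4 (2.30), Ddit3 (1.95), Sars (1.61), Sesn2 (1.47), Aars (1.04), Eprs (1.01), Cars (0.91), Asns (0.73), Mars (0.72) and Yars (0.54) were higher on the log2 scale at 12 h, and Kars (-0.81) was lower. Trib3 and Eif2ak4 passed in every leave-out fit. Cars, Ddit3, Eprs and Sars lost their calls only without replicate 1 of every 12 h group. Aars, Asns, Kars, Mars, Sesn2 and Yars also lost theirs in fits that left out a single library. The remaining 3 are interactions, where the change with IL-10 differed between cells with and without LPS: Ppp1r15a at 3 h (-1.18) and 6 h (-1.94), and Eif2ak4 at 6 h (1.48). Each of these was lost in at least 1 fit that left out a library.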

How the results depend on the processing

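Of the 100 member calls, 47 passed in every leave-out fit and 55 under every other alternative. For the 6 h and 12 h table, the leave-out fits included 1 without replicate 1 of every 12 h group. Signs reversed in LPS against control under 2 scalings. With equal library totals this held at 3 h for Asns (-0.12), Psat1 (-0.24), Cars (-0.24), Eprs (-0.14), Gars (-0.27), Hars (-0.35), Lars (-0.36), Nars (-0.36) and Rars (-0.11), at 6 h for Asns (-0.51), Psat1 (-0.66) and Mthfd2 (-0.07), and at 12 h for Eprs (-0.06), Kars (-0.10) and Nars (-0.10). With quantile normalization it held at 3 h for Eprs (-0.15), Gars (-0.24), Hars (-0.07), Lars (-0.22), Nars (-0.44) and Rars (-0.06), at 6 h for Psat1 (-0.25) and at 12 h for Nars (-0.19). Both scalings shift the median gene.

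Counts of members called moved by over 1.5 times as follows; the cause was not tested. With LPS against control at 3 h, quantile normalization gave 12 calls, not 20. For IL-10 alone the 1 call at 3 h became 0 with no filter and with equal totals and 2 after GC trends were removed, and the 0 at 12 h became 1 with quantile normalization or DESeq2. For LPS with IL-10 against LPS, removal of GC trends gave 4, 10 and 11 calls at 3, 6 and 12 h, not 1, 5 and 4; quantile normalization gave 3 at 6 h, and equal totals 1 at 12 h. For the interaction, GC removal gave 6 at 6 h and 3 at 12 h, quantile normalization 1 at 6 h, and DESeq2 2 at 12 h. LPS at 12 h against 6 h gave 19 calls with equal totals (19 higher and 0 lower) and 21 after GC removal (14 higher and 7 lower). The main fit gave 12 (11 higher and 1 lower). The difference in the IL-10 change between the times gave 3 with DESeq2 and 6 after GC removal, not 0.

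With libraries left out, counts with LPS against control were 14 to 24, 16 to 21 and 17 to 23 at 3, 6 and 12 h. They were 0 to 5, 0 and 0 to 1 for IL-10 alone, 1 to 3, 2 to 6 and 0 to 6 for LPS with IL-10 against LPS, and 0 to 2, 0 to 12 and 0 for the interaction. LPS at 12 h against 6 h gave 2 to 13, LPS with IL-10 at 12 h against 6 h 0 to 15, and the difference in the IL-10 change 0 to 2. The interaction at 6 h had 12 calls without control replicate 1 and 0 without control replicate 2, and IL-10 alone at 3 h had 5 without control replicate 2.

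Libraries with equal replicate numbers were not treated as pairs. Correlations of their deviations ran from -0.41 to 0.70. They cannot decide whether libraries were paired, because the deviations also follow GC content. A replicate block gave 2 calls for LPS with IL-10 against LPS at 3 h, also in edgeR, and 1 at 12 h in edgeR. With the replicate block and GC removal the counts were 4, 9 and 9 for LPS with IL-10 against LPS, 2 for IL-10 alone at 3 h, 2 for the interaction at 12 h, 20 for LPS at 12 h against 6 h and 5 for the difference in the IL-10 change.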
